A study of Mus musculus with 8 samples.

Results

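Astrocytes are the glial cells that take up glutamate from synapses, pass ions, water and metabolites between one another, and supply neurons with glutamine and lipids. A list of 35 genes that mark these cells was followed in mouse medial prefrontal cortex after stress. The list was given by gene name and was not chosen on the measured values, although earlier results of these data were known when it was drawn up. Probes of 34 of the 35 genes were found on the array, Ppap2b under its current symbol Plpp3, and Clu was not analysed here. Of the 34, 33 were tested among 11018 genes in all, since a gene needed a probe whose detection p was under 0.05 on no fewer than 4 of 8 arrays. Thbs4, a secreted synapse-organizing protein, was detected on 0 of 8 arrays.

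RNA came from 1 mm punches of the medial prefrontal cortex of both hemispheres of male mice aged 10 weeks, and was hybridized to Illumina bead arrays. The IMO group (4 arrays, replicates 1 to 4) came from mice that had been immobilized for 2 h, with the tissue taken 6 days later under basal conditions. The No stress group (4 arrays, replicates 5 to 8) had no immobilization. The labels name no strain, no genotype and no other agent, and nothing in them says whether the arrays come from separate animals. The p-values therefore reflect the spread among these samples alone, which may be technical.

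Of the 34 astrocyte genes with a probe, 32 were detected on all 8 arrays, Mlc1 on 3 IMO and 4 No stress arrays, and Thbs4 on none. The filter for testing used the same detection p, so this describes the list and is no check of it. Between 20012 and 21038 probes were detected per array. IMO replicate 1 and No stress replicate 6 stood apart from the other arrays in markers of neighbouring tissue. Prkcd, a kinase gene used here as a marker of striatal, septal and thalamic tissue, had a log2 signal of 10.10 in IMO replicate 1 and 10.30 in No stress replicate 6, and of 7.37 to 7.69 in the other 6 arrays. Myelin genes were high in the same pair of arrays. The main results are therefore also given without these arrays. Punches are bulk tissue, so a lower signal from fewer astrocytes and one from less RNA per astrocyte cannot be told apart.

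Glutamate that astrocytes clear through the transporters EAAT1 (Slc1a3) and EAAT2 (Slc1a2) is turned into glutamine by glutamine synthetase (Glul) and returned to neurons. The connexins encoded by Gja1 and Gjb6 join astrocytes into a network through gap junctions. When astrocytes become reactive, intermediate filament genes such as Gfap and Vim and the protease inhibitor gene Serpina3n are known to increase. Stress hormones act on many of these cells through the glucocorticoid receptor.

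The promoters of the 3 genes with an unadjusted limma p under 0.05, and that of Gfap, the most widely used astrocyte marker, are shown because the results below turn on these genes. Each window runs from 250 bases before to 50 bases after the gene's start in RefSeq, on build GRCm38.p6, and is written 5′ to 3′ on the gene's strand. Capitals mark matches to the letters GNACA and TGTNC with 3 bases of any kind between them (the glucocorticoid response element), or to TTCNNNGAA, the element bound by STAT factors. Both sets of letters read the same on either strand, and no match of one overlapped a match of the other in these windows. The Glul window (chr1:153899679-153899978, plus strand) holds neither. The Acsbg1 window (chr9:54661836-54662135, minus strand) holds the STAT letters at -26 to -18, counted with the start as base 1 and no base 0. The Serpina3n window (chr12:104406458-104406757, plus strand) holds the glucocorticoid letters at -78 to -66, and the Gfap window (chr11:102897151-102897450, minus strand) holds the STAT letters at -2 to 7.
Glul: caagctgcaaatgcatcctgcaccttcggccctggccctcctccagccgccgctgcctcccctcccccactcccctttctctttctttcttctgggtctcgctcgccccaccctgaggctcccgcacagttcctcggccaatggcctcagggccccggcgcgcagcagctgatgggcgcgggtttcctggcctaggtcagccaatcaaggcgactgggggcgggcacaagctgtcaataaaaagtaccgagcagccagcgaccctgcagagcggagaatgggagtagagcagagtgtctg
Acsbg1: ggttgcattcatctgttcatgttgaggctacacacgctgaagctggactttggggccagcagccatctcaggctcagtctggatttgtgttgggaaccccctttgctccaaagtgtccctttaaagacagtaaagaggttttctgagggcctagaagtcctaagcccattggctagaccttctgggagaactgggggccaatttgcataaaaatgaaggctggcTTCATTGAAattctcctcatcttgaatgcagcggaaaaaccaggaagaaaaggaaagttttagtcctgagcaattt
Serpina3n: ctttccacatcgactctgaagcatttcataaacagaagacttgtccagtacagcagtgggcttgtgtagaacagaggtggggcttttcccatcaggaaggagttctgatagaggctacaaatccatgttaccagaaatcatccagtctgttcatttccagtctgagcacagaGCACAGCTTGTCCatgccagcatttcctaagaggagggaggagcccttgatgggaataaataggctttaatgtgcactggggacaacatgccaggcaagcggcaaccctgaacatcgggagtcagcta
Gfap: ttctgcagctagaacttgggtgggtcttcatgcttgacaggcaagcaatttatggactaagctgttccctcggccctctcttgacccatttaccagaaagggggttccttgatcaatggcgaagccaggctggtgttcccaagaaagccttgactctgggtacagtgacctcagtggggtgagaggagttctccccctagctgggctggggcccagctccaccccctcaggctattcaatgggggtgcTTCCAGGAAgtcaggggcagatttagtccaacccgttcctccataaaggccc

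The glucocorticoid letters were found in 0.475% of all 32851 promoter windows and in 1 of the 35 windows of the 30 astrocyte genes that had one (2.86%), that of Serpina3n. The STAT letters were found in 8.3% of all windows and in 5 of the 35 (14.3%), those of Acsbg1, Aldoc, Gfap, Ntsr2 and Slc1a3. A match describes the letters and is not evidence of a bound site.

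No astrocyte gene passed the test over all genes. Of the 33 tested, 0 had a limma adjusted p under 0.05 (Benjamini-Hochberg over 20531 probes), as had 0% of all genes. At an unadjusted limma p under 0.05 there were 3 (9.09%), against 10.6% of all genes. Glul and Acsbg1 had the lower mean in IMO samples (5.86% of all genes were lower at this p) and Serpina3n the higher (4.74% of all genes). The groups did not overlap for 1 of the 33, Glul (3.03%, against 7.17% of all genes). Mean signal was lower in IMO samples for 18 of the 33 (54.5%, against 52.4% of all genes) and higher for 15. The median difference of IMO minus No stress was -0.02 on the log2 scale for the astrocyte genes and -0.01 for all genes, and the differences of single astrocyte genes lay between -0.34 (S100b) and 0.28 (Serpina3n).

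**Figure D1:**
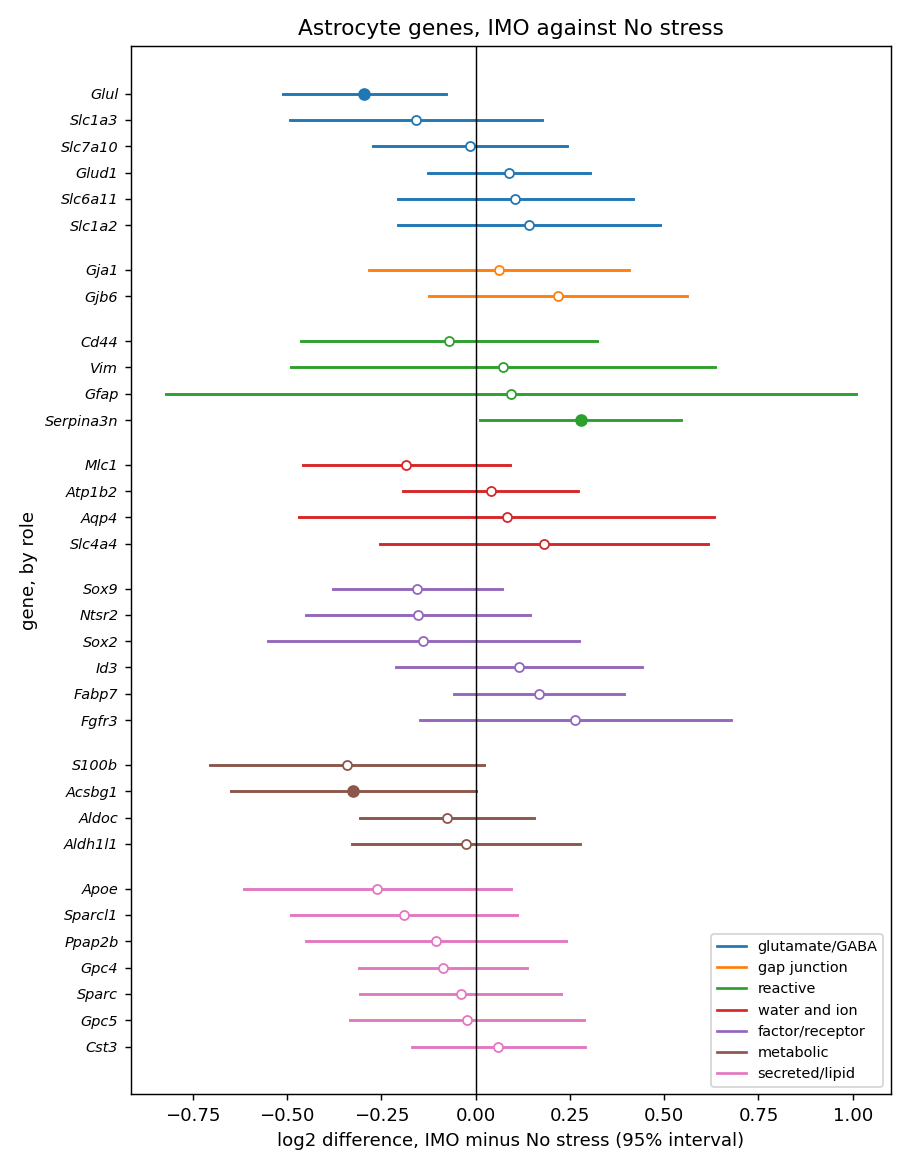
The log2 difference of IMO minus No stress is plotted for each of the 33 tested astrocyte genes at its brightest probe, grouped by role, with points for the estimate and bars for the limma 95% interval. The intervals of Glul, Acsbg1 and Serpina3n lie on one side of 0, that of Acsbg1 only just, and those of the other 30 genes span 0.

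The glutamate group was split. Of its 6 genes, 3 had the lower and 3 the higher mean in IMO samples, with a median difference of 0.04, and 1, Glul, had an unadjusted p under 0.05. The log2 signal of Glul was 8.99, 8.67, 8.68 and 8.88 in the 4 IMO samples, against 9.23, 9.03, 9.09 and 9.05 in the 4 No stress samples. All 4 IMO values lay below all 4 No stress values, with IMO replicate 1 nearest to them. The difference was -0.29 ± 0.10 (SE; 95% interval -0.51 to -0.08) (a percent change of -18.5%). The limma p was 0.0125 and the adjusted p 0.353, and a two-sided exact permutation test gave 0.0286, its lowest possible p with 4 samples in each group. With each array left out in turn the difference of Glul stayed between -0.36 and -0.25.

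Neither of the transporters that feed glutamine synthetase had an unadjusted p under 0.05. The log2 signal of Slc1a3 was 13.52, 13.24, 13.00 and 13.00 in IMO samples, against 13.45, 13.53, 12.98 and 13.43 in No stress samples. That of Slc1a2 was 10.48, 10.28, 10.15 and 9.96 in IMO samples, against 10.10, 10.32, 9.65 and 10.24 in No stress samples. The groups overlapped for both transporters: for each, No stress replicate 7 was the lowest of the 8 arrays. The difference was -0.16 (95% interval -0.49 to 0.17) for Slc1a3 and 0.14 (-0.20 to 0.49) for Slc1a2, whose 3 tested probes ranged from -0.01 to 0.14. Without No stress replicate 7, the Slc1a2 difference was -0.0016. Among the other members of the group, the difference was 0.09 for Glud1, glutamate dehydrogenase, 0.11 for Slc6a11, the GABA transporter GAT3, and -0.01 for Slc7a10, the transporter of small neutral amino acids that carries D-serine. The second tested probe of Glud1 had the opposite sign, at -0.28.

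Both gap junction genes had a higher mean in IMO samples and neither had an unadjusted p under 0.05. Gja1 had a log2 signal of 13.00, 12.69, 12.45 and 12.72 in IMO samples, against 12.87, 12.77, 12.22 and 12.75 in No stress samples. Gjb6 had 11.43, 11.47, 11.16 and 11.49 in IMO samples, against 11.35, 11.31, 10.67 and 11.35 in No stress samples. No stress replicate 7 was the lowest array for both connexins, and IMO replicate 3 the next lowest. The difference was 0.06 for Gja1 (95% interval -0.28 to 0.41) and 0.22 for Gjb6 (-0.12 to 0.56, limma p 0.186, adjusted p 0.66). Without No stress replicate 7 it was -0.08 for Gja1 and 0.05 for Gjb6.

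The reactive and filament group had no common direction. Of 4 genes, 3 had the higher and 1 the lower mean in IMO samples, with a median difference of 0.08. Serpina3n, a secreted serine protease inhibitor, had a log2 signal of 8.99, 8.84, 8.76 and 8.74 in IMO samples, against 8.59, 8.75, 8.22 and 8.65 in No stress samples. The 4 IMO values were close to one another, and 1 No stress value, that of replicate 6, lay among them. The difference was 0.28 ± 0.12 (SE; 95% interval 0.01 to 0.55), or 1.21-fold, with a limma p of 0.0419, an adjusted p of 0.452 and an exact permutation p of 0.0571. It was 0.17 (limma p 0.116) without No stress replicate 7 and 0.35 without No stress replicate 6.

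Gfap itself varied more between arrays of 1 group than between the groups. Its log2 signal was 11.20, 9.96, 9.02 and 9.96 in IMO samples, against 10.26, 10.43, 9.05 and 10.02 in No stress samples. The highest and the lowest of the 8 arrays were both IMO samples, 4.53-fold apart, the widest range of any astrocyte gene tested. The difference was 0.09 with a 95% interval of -0.82 to 1.01. It was -0.29 without IMO replicate 1 and 0.43 without IMO replicate 3. A second, dimmer Gfap probe gave 0.42 (limma p 0.312).

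Vim, the vimentin gene, had a log2 signal of 8.36, 7.76, 6.96 and 7.68 in IMO samples, against 7.42, 7.88, 7.30 and 7.87 in No stress samples. Like Gfap it was highest in IMO replicate 1 and lowest in IMO replicate 3. Cd44, a hyaluronan receptor of fibrous astrocytes, had 6.25, 6.65, 7.06 and 6.83 in IMO samples, against 6.71, 6.46, 6.80 and 7.11 in No stress samples. Among IMO samples it was lowest in replicate 1 and highest in replicate 3, the reverse of Gfap and Vim. The differences were 0.07 for Vim and -0.07 for Cd44, both within the spread between replicates.

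**Figure D2:**
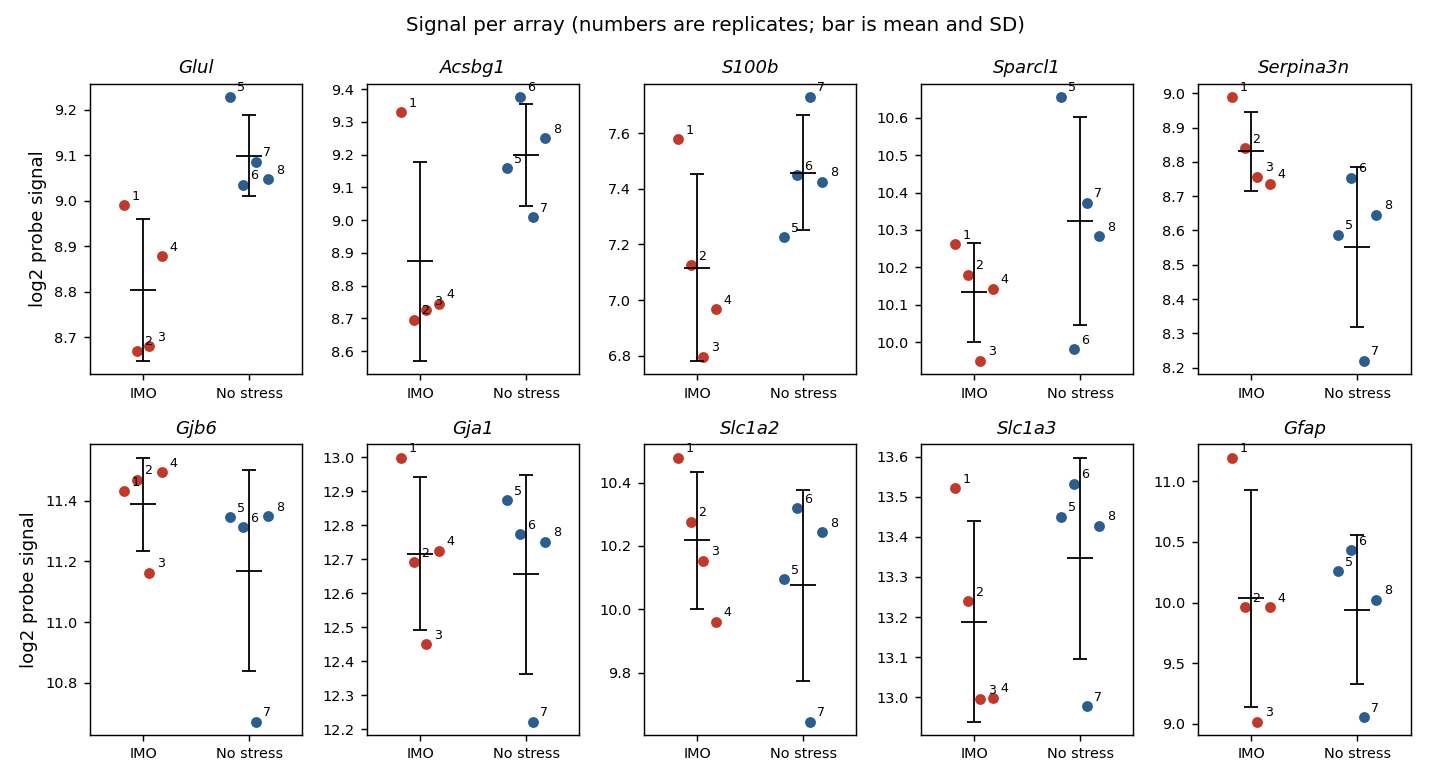
Log2 probe signal per array is plotted for 10 astrocyte genes of the glutamate, gap junction, reactive, metabolic and secreted groups, with IMO samples to the left of No stress samples, replicate numbers beside the points, and bars for the mean and SD (n = 4 each). The Glul values of the 2 groups do not overlap, and the Gfap values run from 9.02 to 11.20 within the IMO group alone.

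All 4 genes of the metabolic and calcium-binding group had a lower mean in IMO samples, with a median difference of -0.20, and 1 of the 4, Acsbg1, had an unadjusted p under 0.05. Acsbg1, an acyl-CoA synthetase for long fatty acids, had a log2 signal of 9.33, 8.70, 8.73 and 8.75 in IMO samples, against 9.16, 9.38, 9.01 and 9.25 in No stress samples. The values of 3 IMO samples lay below all 4 No stress values, and IMO replicate 1, one of the arrays that stand apart, lay among the highest. The difference was -0.32 ± 0.15 (SE; 95% interval -0.65 to -0.0001) (a percent change of -20.1%), with a limma p of 0.0499, an adjusted p of 0.47 and an exact permutation p of 0.114. Without IMO replicate 1 the difference was -0.48 (limma p 0.000928, adjusted p 0.254), and without No stress replicate 6 it was -0.26 (limma p 0.132). The second Acsbg1 probe gave -0.19 (limma p 0.206).

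S100b, a calcium-binding protein secreted by astrocytes, had a log2 signal of 7.58, 7.13, 6.80 and 6.97 in IMO samples, against 7.23, 7.45, 7.73 and 7.42 in No stress samples. Again 3 of the 4 IMO values lay below all No stress values and IMO replicate 1 did not. The difference was -0.34 (95% interval -0.70 to 0.02, limma p 0.0633, adjusted p 0.501), the lowest of any astrocyte gene at its brightest probe.

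The enzymes that most often define astrocytes differed by less than the spread between replicates. Aldh1l1, a folate enzyme, had a log2 signal of 8.13, 7.98, 7.80 and 8.18 in IMO samples, against 7.95, 7.98, 7.83 and 8.43 in No stress samples. Aldoc, the brain aldolase of glycolysis, had 13.30, 13.19, 13.05 and 13.09 in IMO samples, against 13.42, 13.27, 13.01 and 13.24 in No stress samples. Both genes overlapped fully between the groups, with differences of -0.03 for Aldh1l1 and -0.08 for Aldoc. A dimmer Aldoc probe gave -0.24 (limma p 0.0482, adjusted p 0.467).

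Among water, ion and pH genes, 3 of 4 had the higher mean in IMO samples, with a median difference of 0.06, and 0 had an unadjusted p under 0.05. Aqp4, the water channel of astrocyte endfeet, had a log2 signal of 11.55, 10.92, 10.41 and 10.70 in IMO samples, against 11.01, 11.15, 10.23 and 10.86 in No stress samples. It was highest in IMO replicate 1 and low in both IMO replicate 3 and No stress replicate 7, and the difference was 0.08 (95% interval -0.47 to 0.63). The difference was 0.18 for the bicarbonate cotransporter gene Slc4a4, 0.04 for Atp1b2, a sodium pump subunit, and -0.18 for Mlc1, a membrane protein of endfeet whose signal was near the detection limit.

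Transcription factors, progenitor genes and receptors were divided equally, 3 lower and 3 higher, with 0 at an unadjusted p under 0.05. Sox9, the factor that specifies and maintains astrocytes, had a log2 signal of 10.90, 10.98, 10.91 and 11.15 in IMO samples, against 11.10, 11.13, 10.98 and 11.35 in No stress samples. The groups overlapped, and the difference was -0.15 (95% interval -0.38 to 0.07, limma p 0.156). Sox2, a stem cell factor that astrocytes keep, had 7.60, 7.30, 7.26 and 6.93 in IMO samples, against 7.29, 7.96, 7.18 and 7.22 in No stress samples, a difference of -0.14 with overlapping groups.

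A dimmer Sox2 probe separated the groups. Its log2 signal was 6.72, 6.48, 6.46 and 6.59 in IMO samples, against 6.93, 7.14, 7.02 and 7.07 in No stress samples. All IMO values lay below all No stress values, at levels up to about 1 log2 unit over the detection limit of about 6.11, and the difference was -0.48 (limma p 0.00028, adjusted p 0.236). The 2 Sox2 probes therefore differ in size though not in sign. Among the remaining genes of this group, the difference was 0.26 for Fgfr3, a growth factor receptor, 0.17 for Fabp7, a fatty acid carrier of radial glia, 0.11 for Id3, an inhibitor of helix-loop-helix factors, and -0.15 for Ntsr2, a neurotensin receptor. The 95% intervals of all 4 spanned 0.

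Secreted, lipid and synapse-organizing genes mostly had the lower mean in IMO samples, 6 of the 7 tested, with a median difference of -0.09 and 0 at an unadjusted p under 0.05. Apoe, the lipid carrier that astrocytes secrete, had a log2 signal of 11.82, 11.63, 11.48 and 11.39 in IMO samples, against 11.86, 12.04, 11.36 and 12.10 in No stress samples. The IMO values lay below 3 of the 4 No stress values, and No stress replicate 7 was the lowest array of all. The difference was -0.26 (95% interval -0.61 to 0.09, limma p 0.133), and without No stress replicate 7 it was -0.42 (limma p 0.00613, adjusted p 0.389).

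Sparcl1 (hevin, which promotes synapse formation) had a difference of -0.19 and Sparc, its antagonist, one of -0.04 at the brightest probe. A dimmer Sparc probe gave -0.44 (limma p 0.0156, adjusted p 0.375). The differences were -0.11 for Ppap2b, a lipid phosphatase, 0.06 for Cst3, a protease inhibitor, and -0.09 and -0.02 for the glypicans Gpc4 and Gpc5. Counting any tested probe, 6 of the 33 genes had an unadjusted p under 0.05, against 14.9% of all genes. Of the 12 astrocyte genes with several tested probes, 3 had probes of both signs (Cd44, Glud1 and Slc1a2).

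The astrocyte genes deviated together from array to array. In IMO replicate 1, 31 of the 33 genes were above their own mean over the 8 arrays, in IMO replicate 2, 13, in IMO replicate 3, 6, and in IMO replicate 4, 14. In No stress replicates 5 to 8 the counts were 22, 29, 5 and 26. The mean deviation of the 33 genes was 0.24 in IMO replicate 1 and -0.21 in IMO replicate 3, against 0.12 in No stress replicate 6 and -0.24 in No stress replicate 7. Each group thus held both a high and a low array. Over all genes, the share above their own mean was between 45.7% and 55.7% per array. The pooled within-group SD had a median of 0.23 for the astrocyte genes and 0.15 for all genes.

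**Figure D3:**
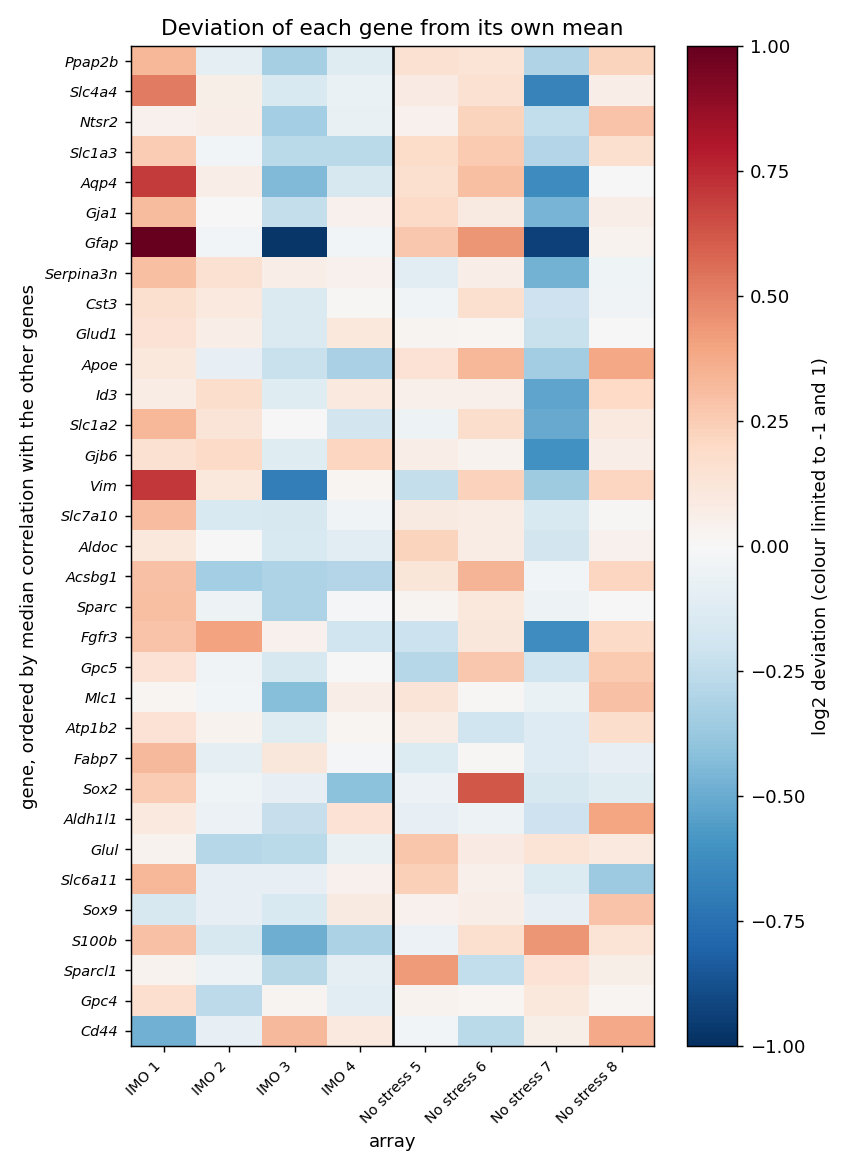
The deviation of each of the 33 astrocyte genes from its own mean over 8 arrays (log2, colour limited to -1 and 1) is shown with IMO arrays to the left of No stress arrays and genes ordered by their median correlation with the others. IMO replicate 1 is high in 31 of the 33 genes, and IMO replicate 3 and No stress replicate 7 are low in 27 and 28 of them.

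With the group means taken out, the median Pearson r over the 528 pairs of astrocyte genes was 0.54 across the 8 arrays, and over pairs of all tested genes it was 0.01. It was 0.54 again without IMO replicate 1 and No stress replicate 6. These values are descriptions, and all genes of an array share its RNA and its hybridization. That holds for pairs of all tested genes too, and what sets the astrocyte pairs apart was not tested. The genes with the highest median r with the rest were Ppap2b at 0.78, Slc4a4 at 0.77, Ntsr2 at 0.76, Slc1a3 at 0.76 and Aqp4 at 0.76. The lowest were Cd44 at -0.51, Gpc4 at 0.06 and Sparcl1 at 0.08. Within the groups of most interest the median r was 0.89 for the single gap junction pair, 0.65 for the 6 glutamate genes and 0.11 for the 4 reactive genes.

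Single relations were tested over the 8 arrays with exact permutations, 11 in all, chosen after the values were seen. The adjustment over these 11 does not cover that choice. Here the group means were left in. The p-values are against no relation at all, whereas the median pair of astrocyte genes had r = 0.54 with group means taken out. By r, the closest of the 11 relations was that of Gfap and Aqp4, at 0.979 (exact p 0.000198, adjusted 0.00218). Its rho was 0.905 (exact p 0.00456, adjusted 0.0251), and r was 0.975 without IMO replicates 1 and 3, the arrays farthest from the median of Gfap. By rho, Gfap was closer to striatal, septal and thalamic markers, at 0.952 (exact p 0.00114, adjusted 0.01255), as given below. Gja1 and Gjb6 had r = 0.848 (exact p 0.0119, adjusted 0.0262) but rho = 0.357 (exact p 0.389, adjusted 0.476), and r = -0.176 without IMO replicate 3 and No stress replicate 7, so their relation rests on those arrays. Slc1a2 and Slc1a3 had r = 0.742 (exact p 0.0235, adjusted 0.0431) and rho = 0.762 (exact p 0.0368, adjusted 0.0809), and r = 0.609 without IMO replicate 1 and No stress replicate 7. Glul and Slc1a3, the enzyme and a transporter of the same cycle, had r = 0.473 (exact p 0.24, adjusted 0.24) and rho = 0.19 (exact p 0.665, adjusted 0.665). Without IMO replicate 1 and No stress replicate 6, r was 0.95 for Gfap and Aqp4 (exact p 0.0111, adjusted 0.0611), 0.886 for the connexins (exact p 0.0306, adjusted 0.084) and 0.589 for the transporters (exact p 0.197, adjusted 0.31). There rho was 0.771 for Gfap and Aqp4 (exact p 0.103, adjusted 0.283). It was 0.486 for the connexins and for the transporters (each exact p 0.356, adjusted 0.489). With IMO replicate 3 and No stress replicate 7 left out too, r was 0.719 for Gfap and Aqp4 and -0.743 for the connexins. For the transporters r was -0.027 with IMO replicate 4 and No stress replicate 7 left out too. Few arrays are left for these r, and no p was computed for them. Of the remaining relations, Gfap and Vim had r = 0.894 (exact p 0.00481, adjusted 0.0206) and rho = 0.833 (exact p 0.0154, adjusted 0.0423), and r = 0.647 without IMO replicates 1 and 3. Without IMO replicate 1 and No stress replicate 6 this relation had r = 0.756 (exact p 0.0778, adjusted 0.143) and rho = 0.6 (exact p 0.242, adjusted 0.489), and r = -0.814 when IMO replicate 3 and No stress replicate 7 were left out too. That last r comes from the few arrays nearest the median of Gfap, so it cannot tell whether the relation rests on the arrays left out. Adjusted p was above 0.05 for r and rho of Glul with Acsbg1 (r = 0.749), Gfap with Serpina3n (r = 0.651) and Gfap with endothelial markers (r = 0.575).

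Gfap also moved with markers of cells other than astrocytes. Against the mean deviation of 9 mural and meningeal markers it had r = 0.876 (exact p 0.00561, adjusted 0.0206) and rho = 0.881 (exact p 0.00724, adjusted 0.0266), and r = 0.642 without IMO replicate 3 and No stress replicate 7. Without IMO replicate 1 and No stress replicate 6 it was 0.889 (exact p 0.0194, adjusted 0.0713). Of these 9 markers, 9 were tested and 7 had the lower mean in IMO samples, against 52.4% of all genes. Of the 7, 2 had an unadjusted limma p under 0.05 (Pdgfrb, -0.21, and Ptgds, -0.44), and 5.86% of all genes were lower at this p. The summed signal of the 9 markers was 3770 to 10663 in IMO samples, against 5697 to 9656 in No stress samples. Acta2, the smooth muscle actin gene, had a log2 signal of 12.57, 11.40, 9.23 and 11.01 in IMO samples, against 10.95, 11.43, 10.69 and 11.74 in No stress samples, with its highest and lowest values in the same IMO arrays as Gfap. For 6 striatal, septal and thalamic markers the 8 arrays fall into 2 clusters. Over all 8 arrays Gfap and these markers had r = 0.846 (exact p 0.0102, adjusted 0.0262) and rho = 0.952 (exact p 0.00114, adjusted 0.01255). Over the 6 arrays other than IMO replicate 1 and No stress replicate 6, Gfap and these markers had r = 0.96 (exact p 0.00694, adjusted 0.0611) and rho = 0.943 (exact p 0.0167, adjusted 0.183), and for 10 myelin markers r was -0.507 (exact p 0.303, adjusted 0.396) and rho -0.0857 (exact p 0.919, adjusted 0.919). The part of either tissue in the Gfap values was not tested.

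**Figure D4:**
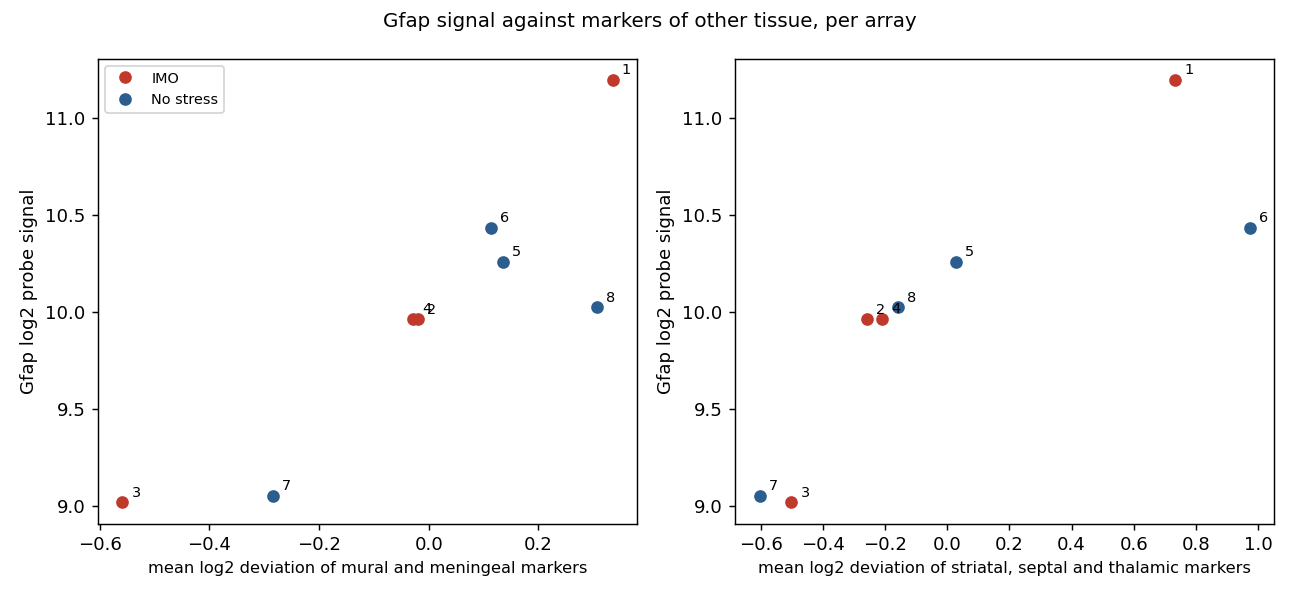
Gfap log2 signal on each array is plotted against the mean log2 deviation of markers of other cells or tissue, with IMO and No stress arrays marked and replicate numbers beside the points. IMO replicate 1 is highest and IMO replicate 3 lowest in Gfap, and IMO replicate 1 and No stress replicate 6 lie apart on the axis of striatal, septal and thalamic markers.

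Other cell types are given for comparison with the astrocyte genes. Of all genes, 52.4% had the lower mean in IMO samples, 10.6% had an unadjusted limma p under 0.05 and 7.17% had groups that did not overlap. All 10 tested myelin markers had the lower mean in IMO samples, with summed signals of 7965 to 25693 in IMO samples, against 9512 to 26931 in No stress samples, and 0 had an unadjusted p under 0.05. All 5 blood markers had the lower mean, with a median difference of -0.67 and 2 at an unadjusted p under 0.05, the haemoglobin genes Hbb-bt (-0.69) and Hba-a1 (-0.67). Their summed signal was 12252 to 27590 in IMO samples, against 22306 to 39673 in No stress samples. All 4 tested ependymal and choroid plexus markers had the lower mean, with a median difference of -0.52, and 1 of them, Foxj1 (-0.19), had an unadjusted p under 0.05 and groups that did not overlap. Their summed signal was 314 to 739 in IMO samples, against 527 to 3278 in No stress samples. Of 8 endothelial markers 6 had the lower mean, and 1, the tight junction gene Cldn5 (-0.44), had an unadjusted p under 0.05 and groups that did not overlap. Their summed signal was 3550 to 4686 in IMO samples, against 4220 to 5374 in No stress samples. Of 9 microglial markers 5 had the lower mean, and 2 had an unadjusted p under 0.05, the purine receptor gene P2ry12 (-0.43) and the chemokine receptor gene Cx3cr1 (0.20). The groups did not overlap for P2ry12 and Aif1. The microglial summed signal was 4262 to 4603 in IMO samples, against 4139 to 4870 in No stress samples. At an unadjusted p under 0.05 there was also 1 of 5 oligodendrocyte precursor markers (Cacng4, 0.27), 1 of 6 cortical excitatory neuron markers (Rorb, 0.36) and 1 of 6 interneuron markers (Pvalb, -0.48). The summed signal of the 33 astrocyte genes was 65074 to 88327 in IMO samples, against 62439 to 83177 in No stress samples. The ranges overlap for each of these cell types, and their part in the differences of Glul, Acsbg1, S100b and Serpina3n was not tested.

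Since the arrays differed in their astrocyte signal as a whole, each gene was also expressed relative to the mean of the other tested astrocyte genes on the same array, a setting chosen after seeing the data. On this scale the groups did not overlap for 2 of the 33 genes, Acsbg1 and Serpina3n. The share of all genes was 1.6%, but other genes do not share the astrocyte level that is subtracted, so the share of the astrocyte genes cannot be read against it. Acsbg1 had a relative log2 level of -0.68, -1.07, -0.84 and -0.98 in IMO samples, against -0.66, -0.50, -0.51 and -0.63 in No stress samples. Serpina3n had -1.03, -0.92, -0.81 and -0.98 in IMO samples, against -1.25, -1.15, -1.33 and -1.25 in No stress samples. All 4 IMO values lay below the No stress values for Acsbg1, by a narrow margin in IMO replicate 1, and above them for Serpina3n. The differences were -0.31 for Acsbg1 and 0.31 for Serpina3n, each with a two-sided exact permutation p of 0.0286, the smallest possible, and unadjusted for the 33 genes. For Glul the relative difference was -0.28 (exact permutation p 0.0857), with overlap between IMO replicate 4 and No stress replicates 6 and 8.

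**Figure D5:**
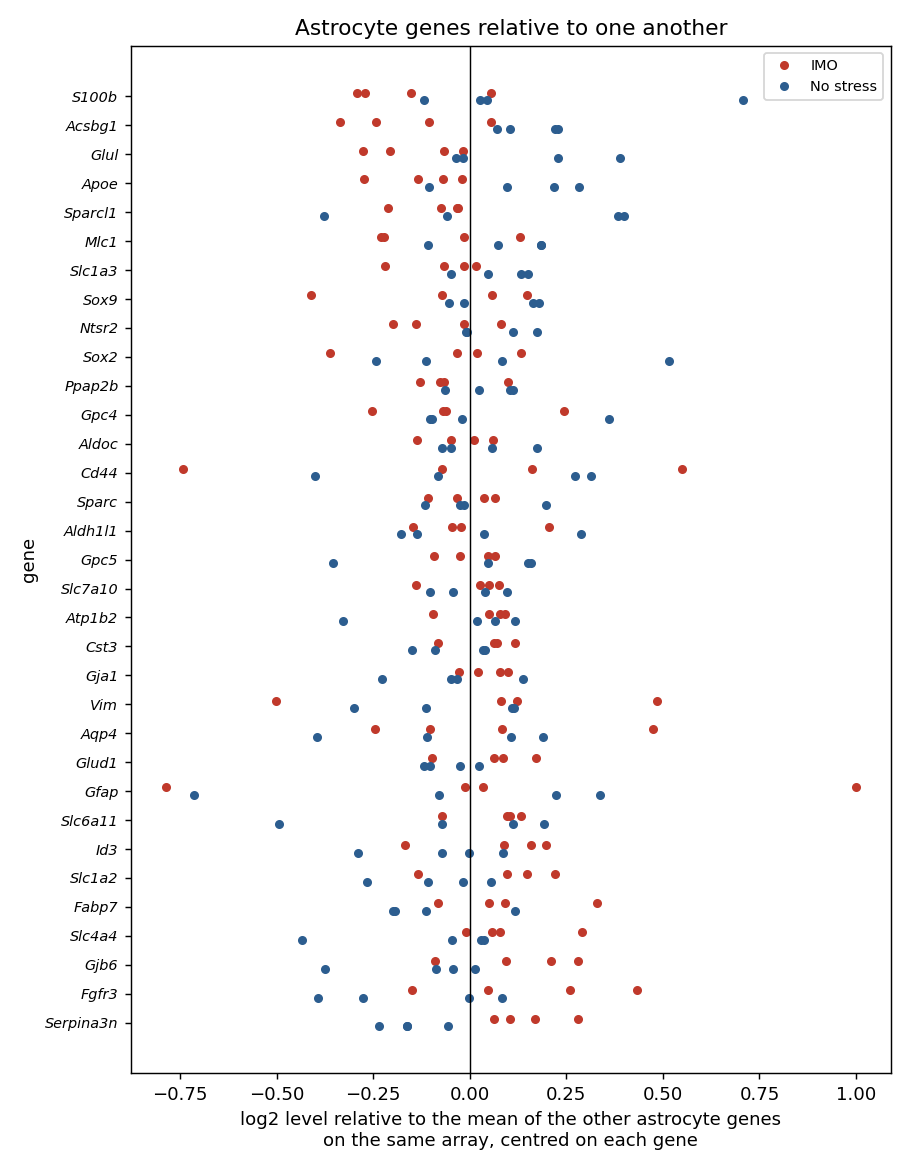
Log2 levels relative to the mean of the other astrocyte genes on the same array, centred on each gene, are plotted per array for the 33 tested astrocyte genes, IMO above No stress. The IMO and No stress points of Acsbg1 and of Serpina3n do not overlap, and those of Glul do.

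Without IMO replicate 1 and No stress replicate 6, the arrays high in markers of neighbouring tissue, 5 of the 33 genes had an unadjusted limma p under 0.05 (15.2%, against 11.5% of all genes) and 0 passed after adjustment, as did 0% of all genes. Lower means in IMO samples were found for Acsbg1 at -0.42 (limma p 0.00202, adjusted p 0.275), S100b at -0.50 (limma p 0.00641), Glul at -0.38 (limma p 0.005) and Sparcl1 at -0.35 (limma p 0.019). Serpina3n had the higher mean, at 0.29 (limma p 0.0417). The same 5 genes had groups that did not overlap, against 19.3% of all genes with 3 arrays in each group. The mean was lower in IMO samples for 21 of the 33, against 51.4% of all genes, with a median difference of -0.06.

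The wider pathways around these genes were read from lists of 113 further genes, of which 102 were on the array and 80 tested. The groups did not overlap for 3 of the 80, Tjp1, Ldha and Ndrg2, against 7.17% of all genes. At an unadjusted limma p under 0.05 there were 9 (11.2%, against 10.6% of all genes), 6 lower and 3 higher, and 0 passed after adjustment. In the glutamate-glutamine list 1 of 12 tested genes was among them. Slc38a5, a transporter that releases glutamine from astrocytes, had a log2 signal of 8.06, 7.79, 7.80 and 7.85 in IMO samples, against 8.50, 7.94, 8.27 and 8.42 in No stress samples. Its groups overlapped only through IMO replicate 1 and No stress replicate 6, and the difference was -0.41 (limma p 0.00866, adjusted p 0.346).

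Among the 9 tested genes of the connexin and pannexin list, which also holds the scaffold gene Tjp1, there were 3. Tjp1, the scaffold protein ZO-1 that binds the Gja1 connexin, had a log2 signal of 8.06, 7.93, 7.98 and 8.07 in IMO samples, against 8.39, 8.09, 8.38 and 8.35 in No stress samples. Its groups did not overlap, and the difference was -0.29 (limma p 0.009, adjusted p 0.347). Gjc1, another connexin, had a difference of -0.28 (limma p 0.032), and Panx2, a pannexin, one of 0.32 (limma p 0.031) with signals near the detection limit.

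Of 33 reactive astrocyte genes 31 were on the array and 18 were tested, 9 with the lower and 9 with the higher mean. Sphk1, sphingosine kinase, had a difference of -0.55 (limma p 0.0112), S100a10, an annexin partner, one of -0.44 (limma p 0.0129) and Hspb1, a small heat shock protein, one of 0.35 (limma p 0.0424). Lcn2, Steap4, S1pr3, Timp1 and Cxcl10, inducible genes of reactive astrocytes, were detected on 0 of 8 arrays. Of 5 tested water and potassium genes none had an unadjusted p under 0.05, the smallest p being that of the chloride channel gene Clcn2 (-0.20, limma p 0.0719). Of 9 genes of lactate, glycogen and cholesterol supply the smallest p was that of Ldha, lactate dehydrogenase A (0.17, limma p 0.0615), whose groups did not overlap. Among 27 tested other astrocyte genes, Nfib, a gliogenic factor, had a difference of 0.41 (limma p 0.0437) and Pla2g7, a secreted phospholipase, one of -0.30 (limma p 0.0389). Ndrg2, a gene of the NDRG family that astrocytes express highly, had a log2 signal of 12.42, 12.40, 12.39 and 12.45 in IMO samples, against 12.49, 12.57, 12.49 and 12.61 in No stress samples. Its groups did not overlap, and the difference was -0.13 (limma p 0.123).

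A second deposited table holds other signals under the same array names, and the detection p-values follow the order of the first. In the second table the mean was lower in IMO samples for 26 of the 33 genes, against 58.8% of all genes. An unadjusted limma p under 0.05 was found for 3, against 2.89% of all genes, and 0 passed after adjustment, as did 0% of all genes. These 3 were Slc4a4 (-0.40), Slc6a11 (-0.49) and Aqp4 (-0.45). The sign was the same in both tables for 13 of the 33 genes, against 44.8% of all genes. The difference in the second table was 0.03 for Glul, 0.03 for Acsbg1 and -0.23 for Serpina3n. Each of these 3 had the opposite sign in the first table. Which table holds the arrays named by the labels was not settled, and the differences given above come from the first.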

How the data were processed

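The authors deposited 2 tables of linear probe intensity, with detection p-values beside the columns of the second. The sources used here do not give the processing after the scan, nor the slide or scan of each array. The deposited detection p-values followed their own columns of the value table (rank correlation -0.978 or stronger) more closely than those of the second table (-0.932 at the strongest). The value table was analysed for this reason. Which of the 2 tables holds the arrays named by the labels is not settled by this. The main differences between IMO and No stress samples rest on that choice. Sorted columns of the value table were nearly equal, so it was not normalized again. The second table is named non-normalized by its depositors, and it too was taken to log2 as it is. RNA was isolated with RNeasy columns and amplified to biotinylated cRNA, per the labels' protocols. The number of arrays limits the precision.

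Signals were taken to log2 with no pseudocount (lowest 26.9) and tested with limma 3.58.1 (lmFit and eBayes) (R 4.3.3), and p-values were adjusted by Benjamini-Hochberg over 20531 probes, those detected on 4 or more of the 8 arrays. The fit was tested on simulated data with independent noise for each probe, which does not cover deviations that the genes of an array share. In the platform annotation 34885 probes have 1 gene symbol, 18 have several and 10378 have none here. Each gene stands for its tested probe of highest mean signal, and its other tested probes are given beside it. Exact permutation tests were two-sided, over 70 arrangements. Groups came from the sample titles. Alternatives were the second table, background correction (normexp, offset 50), quantile, median or loess scaling, filters on dim probes, array weights, trend and robust fits, other rules for probes, and leaving out arrays. The fold is 2 to the power of the log2 difference. Promoters are RefSeq's on GRCm38.p6. Members and lists were chosen with earlier results of these data known. Values in every array are given for astrocyte genes of the main list at an unadjusted p under 0.05 or with groups that do not overlap at their brightest probe, and for anchors of each role. The wider lists name their genes at an unadjusted p under 0.05, or the one of smallest p. S100b, Ndrg2 and the wider genes with values in every array were singled out after their values were seen.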

Additional observations from a re-analysis of the deposited data

Results flagged for a closer look

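Of the 66 groups of 4 values (33 astrocyte genes in 2 groups), 6 held an array farther from the others than Dixon's critical value allows, and chance flags about 1 group in 20. That rate takes no account of the astrocyte genes deviating together, and the share of all genes flagged is not given. In 4 of the 6 flagged groups the array was No stress replicate 7, which lay below the rest of its group. Gjb6 was 10.67 there and 11.31 to 11.35 in the other No stress samples (gap over range 0.947). Slc4a4 was 9.42, against 10.16 to 10.24 (0.897), Glud1 was 11.50, against 11.71 to 11.74 (0.875), and Ppap2b was 12.29, against 12.74 to 12.82 (0.849). No stress replicate 6 lay above its group in Sox2, at 7.96 against 7.18 to 7.29 (0.864). IMO replicate 1 lay above its group in Acsbg1, at 9.33 against 8.70 to 8.75 (0.923).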

How the results depend on the processing

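No paired analysis was possible because the groups share no replicate numbers. The count of astrocyte genes with a limma adjusted p under 0.05 was 0 under every alternative run. The count at an unadjusted p under 0.05 was 3, and was 5 with array weights, 5 without IMO replicate 1 and No stress replicate 6, 6 over every tested probe, and 1 to 3 with 1 array left out, 1 without IMO replicate 2 and 1 without IMO replicate 3. It was 2 with median scaling, with loess scaling and with only probes detected on all 8 arrays. In these settings Acsbg1 had a limma p of 0.0504, 0.0559 and 0.0502. The count was 4 with no filter on probes. Of all genes, 10.6% had such a p in the main fit, 11.5% without IMO replicate 1 and No stress replicate 6, and 14.9% at any tested probe. For the other settings named here the share of all genes is not given. Their counts therefore cannot be read as more or fewer astrocyte genes changing. With 1 array left out the median difference was -0.12 to 0.05 for all 33 genes, -0.02 to 0.22 for gap junction, -0.05 to 0.09 for glutamate and -0.05 to 0.31 for reactive genes. In the second table the glutamate median was -0.18 and the reactive median -0.22, and 13 of the 33 genes kept their sign. The signs named from here on are those of the 16 anchor genes alone, and those of the other astrocyte genes are not listed. In the second table signs reversed for Slc1a2 (-0.012), Glul (0.032), Gja1 (-0.17), Gfap (-0.92), Vim (-0.21), Serpina3n (-0.23), Cd44 (0.89), Aqp4 (-0.45), Aldh1l1 (0.0287) and Acsbg1 (0.0312). Array weights reversed Gja1 (-0.0273), Gfap (-0.14), Vim (-0.0403) and Aqp4 (-0.0238), the mean of all probes Cd44 (0.0133), and leaving out both arrays Gfap (-0.13), Vim (-0.0644) and Aqp4 (-0.023). With 1 array left out, signs turned among the anchor genes for Gja1 (-0.083 to 0.15), Gfap (-0.29 to 0.43), Vim (-0.15 to 0.32), Cd44 (-0.191 to 0.0779), Aqp4 (-0.14 to 0.24), Aldh1l1 (-0.10 to 0.10), Sox2 (-0.25 to 0.0441) and Slc1a2 (-0.0016 to 0.23). The cause was not tested. Glul, Acsbg1 and Serpina3n kept their sign under every alternative run on the value table. Differences of probes near the detection limit of about 6.11, such as those of Mlc1 and Gpc4, may be compressed, which was not measured. The dimmer Sox2 probe, also near the limit, had a difference of -0.48, against -0.14 at the brighter Sox2 probe.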
